A study of Mus musculus with 6 samples.

Results

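The 35 genes described here carry the making, uptake, movement and removal of cholesterol. They were chosen by name from a gene-level table of 35148 genes, each name matched 1 row, and all 35 were among the 20865 genes with enough counts to test. The RNA came from the paraventricular nucleus of the hypothalamus (PVH) of mice homozygous for a floxed Ruvbl2 allele (Ruvbl2fl/fl), in which Cre can cut out part of Ruvbl2, an ATPase of chromatin and chaperone complexes. All animals carried that genotype and all received an AAV2 virus in the PVH: AAV2-GFP, with GFP alone, for 3 libraries, or AAV2-Cre-GFP, which adds Cre, for the other 3. The tissue was taken 8 weeks after the injection. The labels give no promoter for the virus, no age, and no statement that a library is 1 animal. The p-values below therefore set the group difference against the spread between libraries, which may not be the spread between animals. According to the series description the knockout was made to study RUVBL2 in synaptic plasticity. How much tissue outside the transduced cells each sample held is not given in the labels, and in bulk tissue a lower level can be fewer cells of a type or less RNA per cell, which cannot be told apart.

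Neurons and glia of the adult brain make their own cholesterol, because lipoproteins of the blood do not cross the blood-brain barrier. When membrane cholesterol is low, SCAP carries the transcription factor SREBP2 out of the endoplasmic reticulum, and SREBP2 switches on the enzymes of the synthesis chain. INSIG proteins hold the complex back when sterols are plentiful. Excess sterol instead becomes oxysterol, which activates the nuclear receptors LXR alpha (Nr1h3) and LXR beta (Nr1h2) and with them the efflux pumps Abca1 and Abcg1 and the ligase Mylip. Neurons clear surplus cholesterol through the hydroxylase CYP46A1.

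The libraries held 41890769 to 54702785 counts. Ruvbl2 itself did not separate the groups, at 9.90, 7.36 and 8.72 FPKM (fragments per gene, scaled to the gene's length and the library's size) with AAV2-GFP against 9.53, 9.10 and 9.51 FPKM with AAV2-Cre-GFP (edgeR adjusted p = 0.773), so directions below are those of libraries labelled GFP or Cre. The value counts the whole gene and does not single out the floxed part. All 6 PVH identity genes (Sim1, Otp, Oxt, Avp, Crh and Trh) were detected in every library, with summed levels of 286 to 730.1 CPM (counts scaled to the library's size) under the GFP label and 222 to 521 CPM under the Cre label. All 6 were below 0 by edgeR, with a median log2 difference of -0.76, 3 of them lower at an unadjusted p under 0.05 and 2 called lower by DESeq2. Some libraries stood apart. In GFP-labelled library 1 the sum over 10 testis genes was 539 CPM, against 17.5 CPM or less in any other library, and in Cre-labelled libraries 2 and 3 the sum over 10 kidney genes was 467 and 507 CPM, against 43.6 CPM or less in any other. The ribosomal RNA model CT010467 stood at 2072 to 2219 CPM in the GFP-labelled and 7301 to 17633 CPM in the Cre-labelled libraries.

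RefSeq promoters (GRCm38.p6, 250 bases before to 50 after a start site) were matched for 29 of the 35 genes. Those of 5 genes with lower levels in the Cre-labelled libraries (Hmgcs1, Idi1, Msmo1, Insig1 and Srebf2) are shown beside those of Mylip, which was higher, and Abca1, an LXR target whose groups overlapped. They lie at chr13:119690101-119690400 (plus strand), chr13:8885356-8885655 (plus), chr8:64733529-64733828 (minus), chr5:28071162-28071461 (plus), chr15:82147019-82147318 (plus), chr13:45389492-45389791 (plus) and chr4:53159846-53160145 (minus). Each is written 5′ to 3′ on the strand of its gene, with capitals for matches, on either strand, to TCACNCCA, the core of a sterol regulatory element, and to CCAAT, the NF-Y box.
Hmgcs1: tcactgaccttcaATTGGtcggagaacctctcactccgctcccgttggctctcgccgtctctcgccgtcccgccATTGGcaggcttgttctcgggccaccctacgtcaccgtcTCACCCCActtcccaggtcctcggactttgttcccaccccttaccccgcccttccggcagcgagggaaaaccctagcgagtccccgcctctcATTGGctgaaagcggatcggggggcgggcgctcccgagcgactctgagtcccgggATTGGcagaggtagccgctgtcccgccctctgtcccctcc
Idi1: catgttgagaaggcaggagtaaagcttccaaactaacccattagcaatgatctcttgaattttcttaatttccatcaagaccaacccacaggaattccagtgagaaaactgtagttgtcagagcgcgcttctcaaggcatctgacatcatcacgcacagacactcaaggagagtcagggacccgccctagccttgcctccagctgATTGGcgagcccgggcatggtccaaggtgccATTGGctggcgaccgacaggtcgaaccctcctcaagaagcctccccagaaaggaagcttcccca
Msmo1: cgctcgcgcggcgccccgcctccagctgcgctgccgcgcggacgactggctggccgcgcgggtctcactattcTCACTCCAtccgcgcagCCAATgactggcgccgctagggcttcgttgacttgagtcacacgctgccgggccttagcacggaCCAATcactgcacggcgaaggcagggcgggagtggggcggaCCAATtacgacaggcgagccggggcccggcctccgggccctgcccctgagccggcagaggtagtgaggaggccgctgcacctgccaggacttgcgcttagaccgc
Insig1: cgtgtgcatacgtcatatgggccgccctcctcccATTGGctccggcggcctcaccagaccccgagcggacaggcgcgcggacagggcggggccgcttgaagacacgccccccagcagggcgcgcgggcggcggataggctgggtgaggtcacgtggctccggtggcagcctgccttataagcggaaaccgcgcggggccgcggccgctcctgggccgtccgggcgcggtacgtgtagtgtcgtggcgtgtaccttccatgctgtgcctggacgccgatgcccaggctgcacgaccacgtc
Srebf2: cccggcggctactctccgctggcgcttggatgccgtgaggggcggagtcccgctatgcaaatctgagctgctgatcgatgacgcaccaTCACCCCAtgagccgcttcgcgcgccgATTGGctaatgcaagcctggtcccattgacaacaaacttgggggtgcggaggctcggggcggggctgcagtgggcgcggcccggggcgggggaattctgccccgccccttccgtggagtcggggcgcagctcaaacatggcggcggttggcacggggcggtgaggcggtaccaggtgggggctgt
Mylip: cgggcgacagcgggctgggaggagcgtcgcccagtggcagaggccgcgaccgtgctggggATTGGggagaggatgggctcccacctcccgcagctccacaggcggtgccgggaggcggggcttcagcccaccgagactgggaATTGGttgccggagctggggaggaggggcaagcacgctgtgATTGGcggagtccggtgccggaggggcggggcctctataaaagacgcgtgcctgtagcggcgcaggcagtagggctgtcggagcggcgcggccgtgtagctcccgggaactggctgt
Abca1: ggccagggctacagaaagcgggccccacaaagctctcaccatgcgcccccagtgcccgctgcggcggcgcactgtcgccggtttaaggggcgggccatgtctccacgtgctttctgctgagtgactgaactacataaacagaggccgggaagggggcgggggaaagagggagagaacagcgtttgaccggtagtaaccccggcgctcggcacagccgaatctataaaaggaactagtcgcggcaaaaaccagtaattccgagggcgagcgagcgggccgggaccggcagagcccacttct

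The CCAAT letters occurred in a promoter of 23 of the 29 genes. By role these were 14 of the 15 synthesis enzymes with a RefSeq promoter, 4 of 5 SREBP control genes, 3 of 4 uptake and transport genes and 2 of 2 turnover genes. None of the 3 matched genes among the LXR receptors and efflux pumps held them, and 2 of 3 LXR targets did. The CCAAT letters occurred in 37.4% of all 32851 promoters of this length and in 42.2% of the 13781 tested genes with a promoter. The TCACNCCA letters matched in 3 of the 29 genes, Hmgcs1, Msmo1 and Srebf2. They matched in 4.69% of the tested genes with a promoter and in 4.36% of all promoters. A longer form searched first, TCACNCCAC, overlaps the shorter one and matched in Hmgcs1 alone. It matched in 1.42% of the tested genes with a promoter and in 1.24% of all promoters. With the start base counted as 0, the match began at -137 in Hmgcs1, at -177 in Msmo1 and at -162 in Srebf2. A match to letters is a description of the sequence and not a site of binding.

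Across the 35 genes the Cre-labelled libraries had lower levels on the SREBP2 side of the pathway, but no single gene passed the test over all genes. On the LXR side Abca1, Abcg1 and Nr1h2 were near 0, and Nr1h3, Mylip and Srebf1 were above it. Of the 35, 29 had a log2 difference below 0, with a median of -0.18, where 51% of all tested genes were below 0 and the median of all was -0.0058. With limma on log2 FPKM 26 of the 35 were below 0, and in edgeR without a filter 27. By edgeR's quasi-likelihood test 0 members passed an adjusted p of 0.05 (smallest adjusted p = 0.0731), against 2 of 20865 genes (0.00959%), both of them lower. At an unadjusted p under 0.05, 16 members were lower and 3 higher (45.7% and 8.57%), against 9.11% and 8.11% of all tested genes. The FPKM values of the groups did not overlap for 13 lower and 4 higher members (37.1% and 11.4%), against 8.8% and 14.1% of all tested genes. The shares of higher members were close to or below those over all genes. DESeq2, run on the same counts, called 9 members, all lower, where it called 4.91% of the genes it adjusted as lower and 3.12% as higher. The 9 were Stard4, Idi1, Sqle, Msmo1, Vldlr, Fdft1, Fdps, Insig1 and Srebf2, with DESeq2 adjusted p from 0.000178 to 0.0356.

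**Figure D1:**
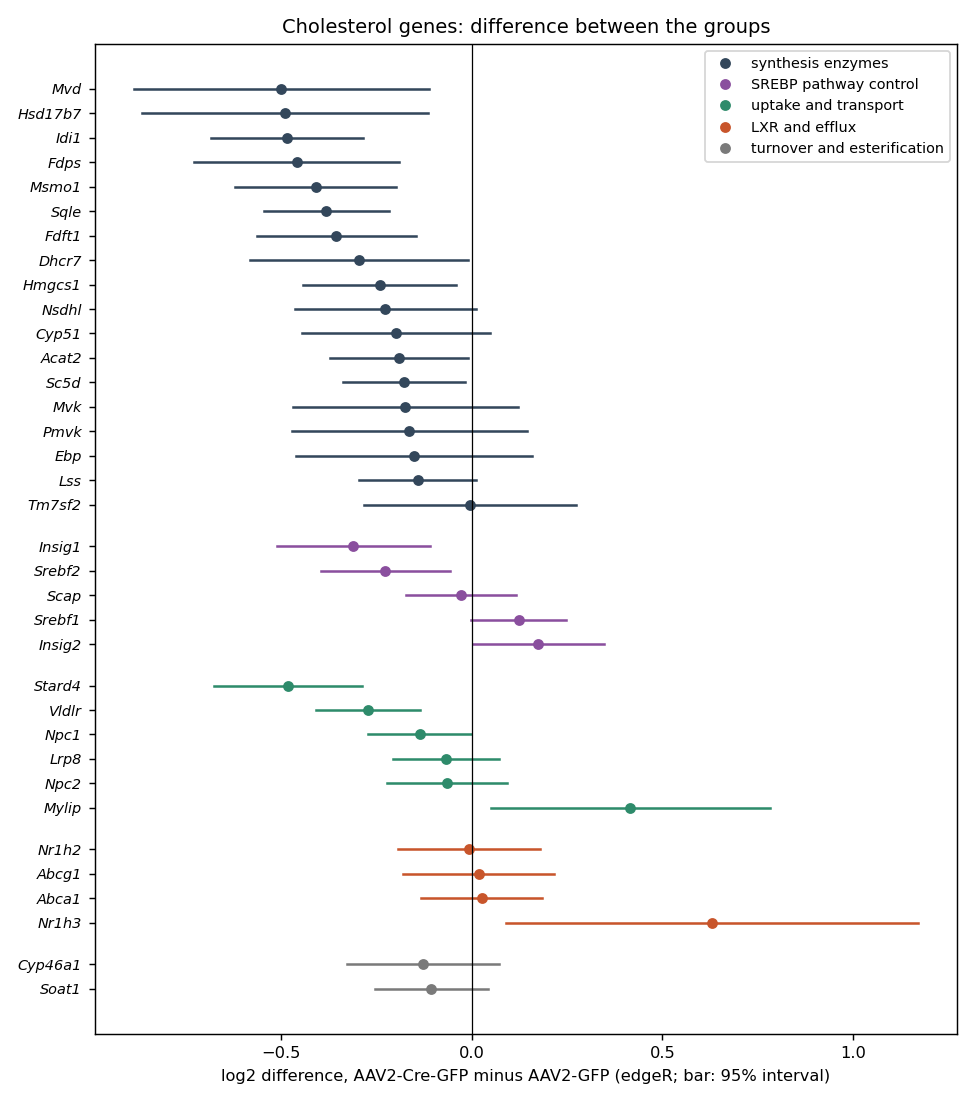
Log2 differences (AAV2-Cre-GFP minus AAV2-GFP, x axis) of the 35 genes from edgeR, coloured by role; points are estimates and bars 95% intervals from 3 libraries per group. The 18 synthesis enzymes run from -0.50 for Mvd to -0.0042 for Tm7sf2 (0.029 by limma), while Mylip (0.42) and Nr1h3 (0.63) lie to the right.

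The count at the unadjusted threshold changed with the libraries in the fit. With 1 library left out it ran from 8 lower (without GFP-labelled library 2) to 16 lower (without GFP-labelled library 1), and the higher count was 1 or 2. The fall to 8 came without a smaller difference: the median of the synthesis enzymes was -0.25 there, against -0.23 with all libraries. The shares over all genes at that threshold were not taken in these settings. When the libraries with testis or kidney transcripts were left out, GFP-labelled 2 and 3 and Cre-labelled 1 remained. In that comparison 30 of the 35 members had a log2 difference below 0. It was chosen after seeing the data and rests on a lone Cre-labelled library, whose spread cannot be measured.

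The enzymes of synthesis lay on the lower side together. All 18 had a log2 difference below 0 by edgeR, though Tm7sf2 was above 0 without the filter on low counts (0.014) and by limma on log2 FPKM (0.029). Their median was -0.23, and -0.15 without Cre-labelled library 1. At an unadjusted p under 0.05 there were 11, all lower (61.1%, against 9.11% of all tested genes), and 9 of the 18 had groups that did not overlap, also all lower (50%, against 8.8%). Levels within the chain differed widely, from 3.13 FPKM for Hsd17b7 to 45.9 FPKM for Hmgcs1 on average over the 6 libraries. Tm7sf2, a sterol reductase, stood at -0.0042 with a 95% interval of -0.28 to 0.27.

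**Figure D2:**
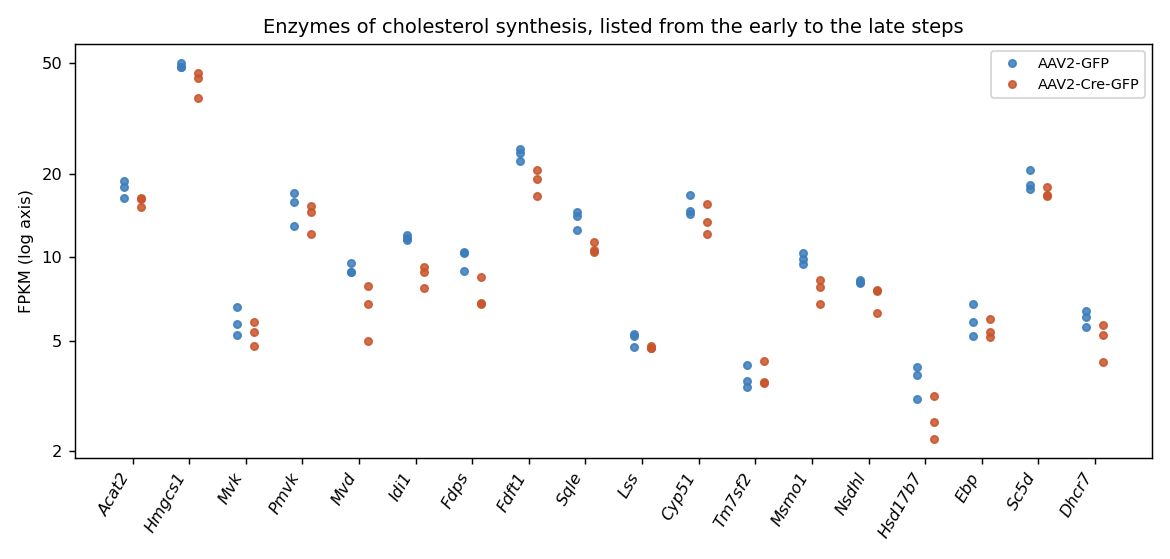
FPKM (log axis) of the 18 synthesis enzymes in the order of the pathway, 1 point per library, 3 AAV2-GFP (blue) and 3 AAV2-Cre-GFP (orange). Hmgcs1 is the highest at each group's points, and the groups are apart for Idi1 and Sqle and overlap for Tm7sf2.

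The early steps lead from acetyl-CoA to the isoprenoid units. Hmgcs1, which makes HMG-CoA, stood at 50.3, 48.5 and 48.6 FPKM in GFP-labelled libraries 1 to 3 and at 37.5, 46.1 and 44.1 FPKM in Cre-labelled libraries 1 to 3, a log2 difference of -0.24 ± 0.087 (SE; edgeR adjusted p = 0.221). The groups were apart, and Cre-labelled library 1 was the low one. Without it the difference was -0.14. Acat2, the cytosolic thiolase that makes acetoacetyl-CoA, stood at 16.4, 17.9 and 18.8 against 15.2, 16.3 and 16.2 FPKM, so the nearest libraries almost met (log2 difference -0.19; edgeR adjusted p = 0.270). The value of Acat2 is uncertain, since 43.7% of the 31-base words of its transcripts occur also in Acat3, a near copy whose log2 difference was 0.31 ± 0.19 (SE; edgeR adjusted p = 0.449).

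Mvd is the decarboxylase that ends the mevalonate steps. It stood at 8.82, 9.52 and 8.81 FPKM in the GFP-labelled and 5.00, 6.79 and 7.85 FPKM in the Cre-labelled libraries, a log2 difference of -0.50 ± 0.17 (SE; edgeR adjusted p = 0.195). Its Cre-labelled values were spread widely below the GFP-labelled ones, and without Cre-labelled library 1 the difference was -0.32. The kinases before it, Mvk and Pmvk, differed by -0.18 and -0.16 with overlapping groups (edgeR adjusted p = 0.528 and 0.574). Both depended on single libraries: with 1 left out, Mvk ran from -0.25 to -0.084 and Pmvk from -0.27 to -0.053, each nearest 0 without Cre-labelled library 1.

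Idi1, which interconverts the isoprenoid building blocks, had tight GFP-labelled values of 11.98, 11.5 and 11.7 FPKM. In the Cre-labelled libraries it stood at 7.75, 8.85 and 9.23 FPKM, 28.5% lower by the fit (log2 difference -0.48 ± 0.086 (SE); edgeR adjusted p = 0.0758). All Cre-labelled libraries were well below all GFP-labelled ones. The pseudogene Gm13502 shares 18.4% of the 31-base words of Idi1 and stood at 4.27 ± 0.777 and 3.72 ± 0.639 FPKM (SD, n = 3). Fdps, which makes farnesyl diphosphate, the branch point to sterols, ran at 8.90, 10.4 and 10.4 against 6.79, 8.49 and 6.84 FPKM (log2 difference -0.46 ± 0.12 (SE); edgeR adjusted p = 0.126). The groups were apart by a small gap between GFP-labelled library 1 and Cre-labelled library 2. Fdps overlaps Gm43738, a model on the same strand, by 7512 bases. Gm43738 holds 24.6% of the 31-base words of Fdps and had at most 12 counts in any library.

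Next come the enzymes that commit farnesyl diphosphate to sterols. Fdft1, squalene synthase, stood at 24.5, 23.8 and 22.3 against 16.7, 20.6 and 19.2 FPKM (log2 difference -0.36 ± 0.090 (SE); edgeR adjusted p = 0.126). Sqle, squalene epoxidase and a rate-limiting step of the chain, stood at 14.5, 14.1 and 12.5 against 10.6, 10.5 and 11.3 FPKM (log2 difference -0.38 ± 0.071 (SE); edgeR adjusted p = 0.0793). Both genes were lower in every Cre-labelled library than in any GFP-labelled one. Lss, which closes the ring to lanosterol, differed by -0.14 with overlapping groups (edgeR adjusted p = 0.323).

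From lanosterol on, the picture was mixed. Msmo1, a methylsterol oxidase, stood at 9.83, 10.4 and 9.46 against 6.78, 8.28 and 7.80 FPKM, with groups apart (log2 difference -0.41 ± 0.091 (SE); edgeR adjusted p = 0.103). Hsd17b7, the keto-reductase of the same demethylating complex, stood at 3.77, 4.02 and 3.08 against 2.21, 3.16 and 2.54 FPKM, and the groups overlapped by 1 library (log2 difference -0.49 ± 0.16 (SE); edgeR adjusted p = 0.193). Dhcr7, the reductase of the last step, stood at 5.61, 6.09 and 6.38 against 4.18, 5.23 and 5.68 FPKM. Its groups also met, at GFP-labelled library 1 and Cre-labelled library 3 (log2 difference -0.29; edgeR adjusted p = 0.278), and without Cre-labelled library 1 the difference was -0.16. Sc5d, a sterol desaturase, stood at 17.7, 20.6 and 18.2 against 17.9, 16.8 and 16.7 FPKM, where Cre-labelled library 1 lay inside the control range (log2 difference -0.18, and -0.11 without GFP-labelled library 2; edgeR adjusted p = 0.250). Nsdhl, a sterol dehydrogenase, had groups apart at a difference of -0.23, and Cyp51, the lanosterol demethylase, and Ebp, a sterol isomerase, had overlapping groups at -0.20 and -0.15 (edgeR adjusted p = 0.309, 0.388 and 0.609). Without Cre-labelled library 1 Nsdhl was at -0.12 and Cyp51 at -0.098, and without GFP-labelled library 3 Ebp was at -0.039.

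**Figure D3:**
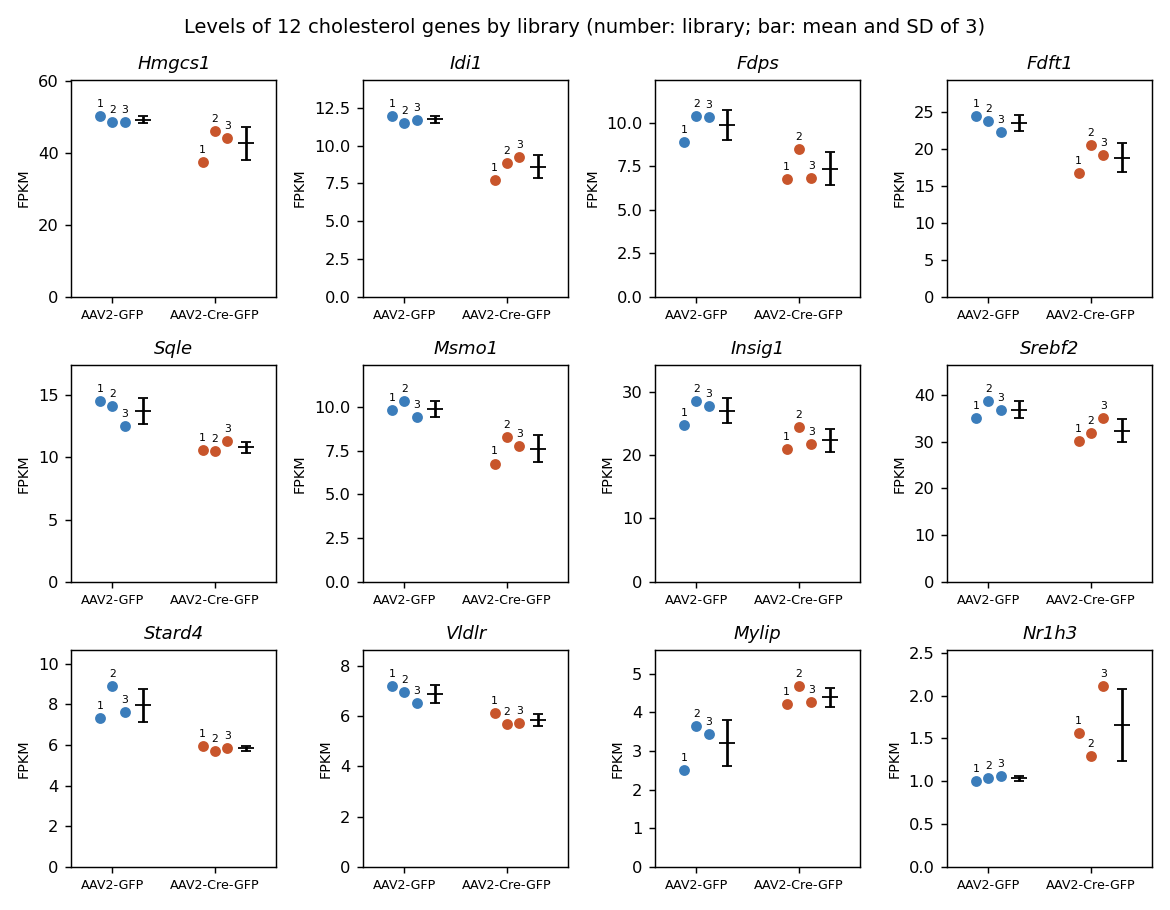
FPKM of 12 genes by library (y axes start at 0; numbers name the library within its group; crosses with bars are mean and SD of 3). All 12 are members whose groups did not overlap, and members with overlapping groups are not drawn. In the first 10 panels every AAV2-Cre-GFP point lies below every AAV2-GFP point, as for Stard4 at 5.69 to 5.95 against 7.33 to 8.90, and in Mylip and Nr1h3 it lies above.

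The genes that control SREBP split by kind. Srebf2, which encodes SREBP2, stood at 35.2, 38.7 and 36.8 FPKM in the GFP-labelled and 30.2, 31.8 and 35.1 FPKM in the Cre-labelled libraries (log2 difference -0.23 ± 0.073 (SE); edgeR adjusted p = 0.185). Cre-labelled library 3 almost reached the lowest control. Insig1, itself an SREBP target, stood at 24.7, 28.5 and 27.7 against 20.9, 24.4 and 21.7 FPKM (log2 difference -0.31 ± 0.087 (SE); edgeR adjusted p = 0.147), and again the nearest libraries, GFP-labelled 1 and Cre-labelled 2, almost met.

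Insig2, the INSIG form that does not depend on SREBP, was on the other side. It stood at 10.3, 9.30 and 10.7 FPKM in the GFP-labelled and 12.01, 11.5 and 11.6 FPKM in the Cre-labelled libraries, with the groups apart (log2 difference 0.17 ± 0.074 (SE), and 0.12 without GFP-labelled library 2; edgeR adjusted p = 0.280). Srebf1, whose SREBP1c form is induced by LXR and drives fatty acid synthesis, stood at 16.3, 17.6 and 17.1 against 19.9, 18.5 and 18.7 FPKM, also apart (log2 difference 0.12 ± 0.054 (SE); edgeR adjusted p = 0.293). Reads were summed per gene, so the SREBP1a and SREBP1c starts are not separated. Scap, the escort of both SREBPs, stood at 13.6, 14.2 and 13.1 against 13.5, 13.0 and 14.7 FPKM, with overlapping groups (log2 difference -0.028, 95% interval -0.17 to 0.12).

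Stard4, which ferries cholesterol between membranes inside the cell and is an SREBP2 target, had the smallest p of the 35 genes in the fit to all 6 libraries. It stood at 7.33, 8.90 and 7.60 FPKM in the GFP-labelled and 5.95, 5.69 and 5.85 FPKM in the Cre-labelled libraries, 28.4% lower by the fit (log2 difference -0.48 ± 0.084 (SE); edgeR adjusted p = 0.0731). The Cre-labelled libraries were close to each other and all below the controls. Vldlr, a receptor that takes up lipoproteins and binds reelin, stood at 7.19, 6.97 and 6.51 against 6.12, 5.70 and 5.74 FPKM (log2 difference -0.27 ± 0.059 (SE); edgeR adjusted p = 0.0995), with the groups apart. Lrp8, the related reelin receptor, differed by -0.068 with overlapping groups (95% interval -0.21 to 0.07), and by -0.027 without Cre-labelled library 1.

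Mylip, the ligase that marks lipoprotein receptors such as VLDLR for breakdown, was on the opposite side. It stood at 2.52, 3.65 and 3.44 FPKM in the GFP-labelled and 4.20, 4.67 and 4.27 FPKM in the Cre-labelled libraries, a log2 difference of 0.42 ± 0.16 (SE; edgeR adjusted p = 0.241). GFP-labelled library 1, the one with testis transcripts, was the low one, and without it the difference was 0.27. For Cre-labelled library 1 alone against GFP-labelled libraries 2 and 3 it was 0.19. Npc1 and Npc2 together release cholesterol from lysosomes. Npc1 stood at 6.93, 6.99 and 7.52 against 6.94, 6.61 and 6.48 FPKM with overlapping groups (log2 difference -0.14 ± 0.058 (SE); edgeR adjusted p = 0.282), and Npc2 differed by -0.065 (95% interval -0.22 to 0.09; -0.027 without Cre-labelled library 2).

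Among the LXR receptors and efflux pumps only Nr1h3 had groups apart. Nr1h3, LXR alpha, stood at 1.00, 1.04 and 1.06 FPKM in the GFP-labelled and 1.56, 1.29 and 2.11 FPKM in the Cre-labelled libraries, from 128 to 341 counts, a log2 difference of 0.63 ± 0.23 (SE; edgeR adjusted p = 0.231). The Cre-labelled values were spread over a wide range, and the highest library, 3, was one of those with kidney transcripts. Without it the difference was 0.43, and in Cre-labelled library 1 alone against GFP-labelled libraries 2 and 3 it was 0.51. The model Gm13783 overlaps Nr1h3 on the same strand by 6873 bases and had 5 to 25 counts.

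Nr1h2, LXR beta, stood at 12.2, 13.2 and 13.0 against 12.7, 14.2 and 12.2 FPKM. Per length it was the more abundant receptor in every library, and its groups overlapped (log2 difference -0.0083, 95% interval -0.19 to 0.18). Abca1, which loads cholesterol onto lipoproteins, stood at 5.39, 5.44 and 5.08 against 5.75, 5.76 and 5.12 FPKM. Abcg1, its partner pump, stood at 8.31, 9.94 and 10.1 against 10.3, 9.23 and 9.98 FPKM. Neither pump separated the groups. The log2 differences were 0.026 (95% interval -0.13 to 0.18) and 0.018 (95% interval -0.18 to 0.21).

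The genes of neuronal turnover and storage also overlapped between groups. Cyp46a1, the hydroxylase that turns cholesterol into an exportable oxysterol in neurons, stood at 29.8, 25.4 and 27.4 against 23.6, 27.0 and 26.9 FPKM, where only Cre-labelled library 1 was below the controls (log2 difference -0.13, 95% interval -0.33 to 0.07). Without that library the difference was -0.046. Soat1, which esterifies cholesterol for storage, stood at 5.57, 6.07 and 5.58 against 5.78, 5.18 and 5.47 FPKM (log2 difference -0.11, 95% interval -0.25 to 0.04), and -0.063 without Cre-labelled library 2.

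Set side by side, the genes listed as SREBP2 targets lay below 0, and the 4 listed as LXR targets lay near 0 or above it. The SREBP2 list held the 18 enzymes with Stard4, Insig1, Srebf2 and Npc1. All 22 were below 0 by edgeR, Tm7sf2 again above 0 by limma (0.029) and without the filter (0.014). The median log2 difference was -0.23, and -0.16 without Cre-labelled library 1. At an unadjusted p under 0.05 there were 15, all lower, against 9.11% of all tested genes that were lower at that threshold. The LXR list held Abca1, Abcg1, Mylip and Srebf1, all 4 above 0, as were 49% of all tested genes. Its median was 0.075, with only Mylip at an unadjusted p under 0.05. That median was no larger than the pooled SD, 0.078, of the list's library medians within the groups. The LXR median was 0.12 when Cre-labelled library 3 was left out and 0.063 when GFP-labelled library 1 was. Abca1 went to -0.00030 without GFP-labelled library 3 and Abcg1 to -0.070 without GFP-labelled library 1. Both lists were drawn up with earlier results of these data known, and the difference between them was not tested. The 4 LXR targets are a choice and not every gene that LXR drives. Fatty acid genes driven by SREBP1 were kept in a separate list, where 8 of 10 were below 0 with a median of -0.13. The contrast therefore holds only for the genes listed.

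Relative to the mean of the GFP-labelled libraries, the median SREBP2 target stood at -0.37, -0.18 and -0.17 in log2 FPKM in Cre-labelled libraries 1 to 3, and at -0.057, 0.044 and -0.0089 in GFP-labelled libraries 1 to 3. The median LXR target stood at 0.17, 0.12 and 0.11 in the Cre-labelled and at -0.12, 0.061 and 0.052 in the GFP-labelled libraries. Over all tested genes detected in every library the same median lay between -0.012 and 0.042. In every Cre-labelled library the SREBP2 median was therefore below, and the LXR median above, each of the GFP-labelled values. Cre-labelled library 1 stood apart on the SREBP2 side: it held the lowest of the 6 values for 16 of the 22 genes. The other Cre-labelled libraries were lower than the controls by a smaller amount, 20 and 21 of the 22 genes lying below the control mean. In GFP-labelled libraries 1 to 3 the same count was 16, 6 and 13.

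**Figure D4:**
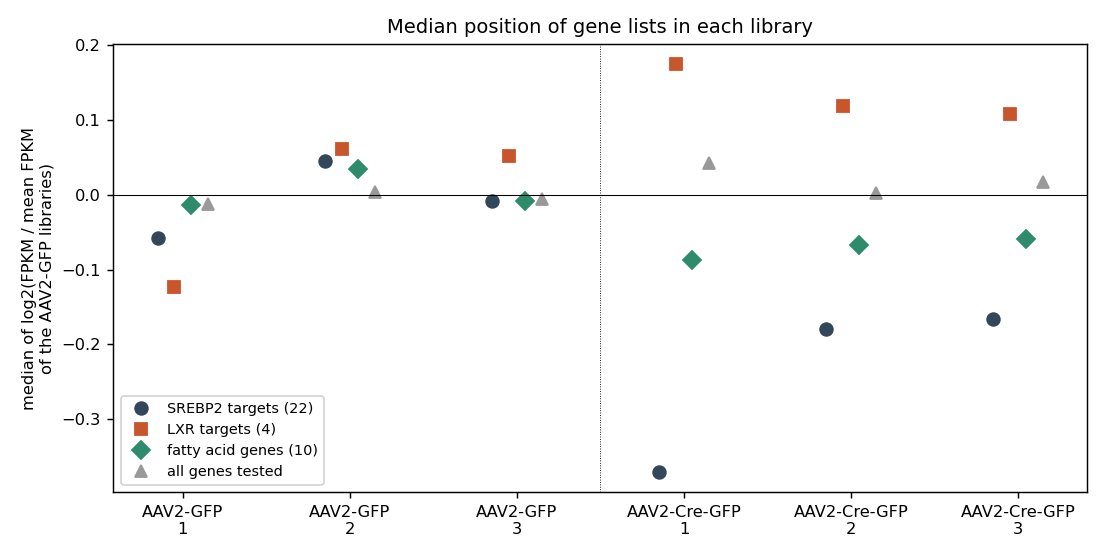
Median over each gene list of log2(FPKM over the mean FPKM of the AAV2-GFP libraries), y axis, in each of the 6 libraries, x axis; 1 marker per list and library, set slightly apart sideways so that none is hidden. The SREBP2 targets lie at -0.37, -0.18 and -0.17 in the AAV2-Cre-GFP libraries and the LXR targets at 0.17, 0.12 and 0.11, while all genes tested stay between -0.012 and 0.042.

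Libraries of 1 group also differed among themselves. The median coefficient of variation over the 22 SREBP2 targets was 7.17% in the GFP-labelled and 9.97% in the Cre-labelled libraries. Over all 35 genes it was 6.19% and 7.62%.

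Further genes of these pathways differed by list. Of 31 further sterol genes (sterol reductases, SREBP proteases, INSIG partners, lysosomal and efflux proteins), 19 were below and 12 above 0, with a median log2 difference of -0.040. At an unadjusted p under 0.05, 2 were higher (6.45%, against 8.11% of all tested genes) and 1 lower (3.23%, against 9.11%), shares no larger than over all genes, and edgeR called 0. Stard3, a cholesterol carrier of late endosomes, had 4.01 ± 0.314 FPKM under the GFP label and 5.64 ± 0.248 FPKM under the Cre label (SD of 3 libraries, edgeR adjusted p = 0.1001). Abca5, a lysosomal transporter, had 3.93 ± 0.218 and 3.11 ± 0.439 FPKM (edgeR adjusted p = 0.145). DESeq2 called both of these and Erlin2 (DESeq2 adjusted p = 0.0106, 0.0209 and 0.0277). That is 2 higher and 1 lower of the 31, where DESeq2 called 3.12% of all genes it adjusted as higher and 4.91% as lower. Of 10 genes of fatty acid synthesis driven by SREBP1, 8 were below 0, with a median of -0.13 and 4 lower at an unadjusted p under 0.05 (40%, against 9.11% of all tested genes), although Srebf1 itself was above 0. The same number had groups that did not overlap, all lower (40%, against 8.8%), and edgeR called 0. DESeq2 called Fasn, Scd1 and Scd2 lower (DESeq2 adjusted p = 0.000601, 0.00601 and 0.0115). Fasn, fatty acid synthase, had 41.9 ± 1.12 and 34.7 ± 2.90 FPKM (edgeR adjusted p = 0.105), and Scd1, a desaturase, 73.3 ± 2.73 and 65.1 ± 3.93 FPKM (edgeR adjusted p = 0.142), in the same order of labels.

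Markers of some cell types also differed between the groups, beside the PVH identity genes with their median of -0.76. The sum over 10 neuron markers was 5478 to 5607 CPM under the GFP label and 4661 to 4967 CPM under the Cre label, and all 10 were below 0 with a median log2 difference of -0.22, close to that of the synthesis enzymes. At an unadjusted p under 0.05 by edgeR 70% of these markers were lower, against 61.1% of the synthesis enzymes. Groups were apart and lower for 50% of each. Over all tested genes the shares were 9.11% and 8.8%. The 6 ependymal markers summed to 142 to 153 CPM and 197 to 264 CPM, with a median of 0.52. The 10 astrocyte markers had a median of 0.091, at 4417 to 4531 CPM and 4471 to 4877 CPM. The 12 oligodendrocyte and myelin markers, whose cells make much of the brain's cholesterol, had overlapping sums of 2455 to 3007 CPM and 2496 to 3015 CPM and a median of -0.043. The 8 microglial and 6 endothelial markers had medians of -0.042 and 0.0088, with overlapping sums of 295 to 333 CPM and 320 to 344 CPM, and of 132 to 163 CPM and 139 to 182 CPM. The part of these cell types, of the PVH identity genes, of CT010467 and of the transcripts of other organs in the values of the cholesterol genes was not tested. Cre-labelled library 1 held 16.6 CPM of the kidney and 16.3 CPM of the testis genes. It also had the highest CT010467 level (17633 CPM) and the highest ependymal sum (264 CPM) of the 6 libraries. Its neuron and PVH identity sums (4661 and 222 CPM) were the lowest of the 6. Set against GFP-labelled libraries 2 and 3 alone, this library gave an SREBP2 median of -0.43 and an LXR median of 0.11.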

How the data were processed

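Libraries were made from poly(A) RNA of PVH tissue with dUTP strand marking and molecular identifiers, per the labels' protocols. The submitters' processing notes name cutadapt, HISAT2 and StringTie. For their versions and roles, and for any use of identifiers or strand in counting: not given in the sources used here. The notes name mm9, but 91.4% of 35024 gene identifiers shared with GENCODE M21 (GRCm38) have the same start and end in the table, so GRCm38 was used for promoters. The authors deposited raw counts per gene and, beside them, FPKM values. Columns were matched to libraries by name.

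Counts were tested with edgeR 4.0.16 (R 4.3.3; quasi-likelihood, TMM, filterByExpr with a minimum count of 10, no covariates, two-sided, Benjamini-Hochberg over 20865 genes, threshold 0.05), after a test on simulated data. Groups are 3 against 3. Libraries held at least 41890769 counts. For members with few counts, such as Nr1h3 at 128 to 341, counting error is part of the precision. Groups overlap where their FPKM ranges meet. Every pair of libraries differed by more than sampling noise (chi-square per gene at least 11.4). The alternatives were DESeq2 1.42.0, edgeR with no filter or robust, a block for the replicate number, leaving out each library, and limma 3.58.1 on log2(FPKM + 0.5), with pseudocounts of 0.1 and 1 and without its filter on low values. Every member is named. Values by library are given for the 4 of each role with the smallest p and for those at an unadjusted p under 0.05, and from the other lists the 2 with the smallest p are named. Erlin2 and Scd2 were named after their values were seen. Near copies were found from 31-base words in GENCODE M21 transcripts. The members, lists and motifs were chosen with earlier results of these data known.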

Additional observations from a re-analysis of the deposited data

How the results depend on the processing

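The number of genes called depended on the tool: DESeq2 called 1322 genes and 9 members, edgeR's robust fit 22 genes, edgeR with no filter 1, limma on log2(FPKM + 0.1) 15, and limma without its filter 1, each with 0 members except DESeq2. Leaving out 1 library gave 1 to 296 genes and 0 members, and the 296 came without Cre-labelled library 1. GFP-labelled 2 and 3 against Cre-labelled 1, chosen after seeing the data, gave 1059 genes and 12 members, a median log2 difference of -0.43 for the synthesis enzymes and for the SREBP2 targets, and -0.018 for Abcg1. The fit with Cre-labelled library 1 alone tested 22015 genes, and the spread of a lone library cannot be measured. Its counts of genes and members therefore cannot be weighed against those of the other settings. The same replicate numbers did not pair the libraries (correlations of deviations -0.0435, 0.0121 and -0.0216), and with the replicate number as a block edgeR called 3 genes and 0 members.

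Of the 35 members, 30 kept their sign in all these settings. The sign was not stable for the others, which all lay near 0. By limma with pseudocounts of 0.5, 0.1 and 1, Tm7sf2 stood at 0.029, 0.032 and 0.026, Nr1h2 at 0.026, 0.026 and 0.025, and Scap, which is also the median of the SREBP control genes, at 0.0076, 0.0078 and 0.0074. Without its filter and at 0.5 the values were the same. With no filter in edgeR, Tm7sf2 was at 0.014 and Nr1h2 at 0.010. With 1 library left out, Tm7sf2 ran from -0.092 to 0.074, Nr1h2 from -0.067 to 0.050, Scap and the SREBP control median from -0.065 to 0.015, Abca1 from -0.00030 to 0.093, Abcg1 from -0.070 to 0.073, the median of the LXR receptors and efflux genes from -0.0049 to 0.072, and that of the turnover genes from -0.13 to -0.085. The turnover median was -0.076, -0.079 and -0.073 by limma. Nr1h3, at 128 to 341 counts, was the member with the fewest counts; the causes of these shifts were not tested.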
